A study of Mus musculus with 16 samples.

Results

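Zmynd17, now named Mss51, and 8 genes of the myostatin and activin pathway were examined in gastrocnemius muscle. The genes were chosen by name, and Zmynd17 was singled out because its level differed between the diets in these same arrays, so its difference is given as a description with no test. The 9 genes (Zmynd17, Mstn, Acvr2b, Acvr1b, Smad2, Smad3, Smad7, Fst and Fstl3) were measured by 12 of the 41174 probes besides controls, which carry 28478 gene names. In the array files, 8 of the 9 stand under these names. Mstn stands there as Gdf8 and was found through its RefSeq accession. Of the 12 probes, 11 passed the filter on weak signals and 1 of 2 Acvr1b probes did not.

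Male C57BL/6N mice received, from 3 months of age and for 8 weeks, a high-fat diet (cHF, 35% lipid by weight, mainly corn oil) to which 10 mg of rosiglitazone per kg of diet was added, a drug that activates the nuclear receptor PPARγ. For 8 mice (cHF+ROSI) this was the whole treatment. For the other 8 (cHF+F+ROSI), 15% of the dietary lipids was exchanged for a concentrate rich in long-chain n-3 fatty acids (46% DHA and 14% EPA). All 16 mice were fasted for 10 h in the light phase and then given low-fat Chow overnight before muscle was taken. Both groups received rosiglitazone and no other group was analysed here, so the comparison concerns the n-3 supplement on top of the drug. RNA of each mouse was labelled with Cy5 and hybridized against a common Cy3 pool of muscle RNA, which the labels describe as drawn from all diets with a higher rosiglitazone dose. The methods mention that dose for the pool of an earlier set of arrays, so the exact make-up of the pool here is uncertain. Each value below is log2(Cy5/Cy3), the signal of a mouse relative to that pool. The dyes were not swapped, so a dye effect of a probe and a level unlike the pool cannot be told apart. A difference is the mean of cHF+F+ROSI minus the mean of cHF+ROSI on that log2 scale.

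Myostatin, the product of Mstn, is secreted by muscle fibres and restrains muscle growth. It binds activin type II receptors such as Acvr2b, which recruit a type I receptor such as Acvr1b, and the complex phosphorylates Smad2 and Smad3, which then act on transcription in the nucleus. Follistatin (Fst) and follistatin-like 3 (Fstl3) hold ligands in inactive complexes outside the cell, and Smad7 blocks the receptor inside it. Zmynd17 encodes a zinc finger MYND-type protein of skeletal muscle that has been placed at mitochondria, and its expression has been described as falling when myostatin signalling is blocked.

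The 16 arrays lay on 4 slides of 4, and each slide carried 2 mice of either group. Positions 1 and 3 of every slide held cHF+ROSI and positions 2 and 4 held cHF+F+ROSI, so position and diet cannot be told apart. On 3 arrays the log2 ratios of all probes spread less (SD 0.14 on cHF+ROSI replicate 1, 0.23 on cHF+ROSI replicate 5 and 0.25 on cHF+F+ROSI replicate 5) than on the other 13 (0.35 to 0.47). On these 3 arrays the ratios of Smad2 and Smad7 were also nearer to 0 than elsewhere, so results were computed with and without them. The 7 genes that mark skeletal muscle, Ckm, Acta1 and Mb among them, were well above background on all 16 arrays, as were the 10 fast fibre and 9 slow fibre genes. Of the genes of other cell types, 8 of 8 adipocyte, 6 of 6 fibroblast and tendon, 3 of 3 endothelial, 5 of 5 macrophage and 4 of 4 red blood cell entries were above background on every array, 2 of the entries being older names of a gene listed already. Myf5 of satellite cells and Snap25 and Nefl of nerve were above background on none. Fewer cells of a type and less RNA per cell cannot be told apart in whole muscle.

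Sequences upstream of Zmynd17 and Mstn are shown because these are the gene whose level differed and the ligand whose signalling it has been tied to. RefSeq promoter entries on build GRCm38.p6 matched 6 of the 9 genes, and the 250 bases before the annotated start of transcription were read 5′ to 3′ on the strand of the gene. Capitals mark GTCTAGAC, a palindrome of the Smad box, and CANNTG, the E-box bound by myogenic factors. The Mss51 stretch lies on the minus strand at chr14:20496902-20497151 and the Mstn stretch on the plus strand at chr1:53061390-53061639.
Mss51: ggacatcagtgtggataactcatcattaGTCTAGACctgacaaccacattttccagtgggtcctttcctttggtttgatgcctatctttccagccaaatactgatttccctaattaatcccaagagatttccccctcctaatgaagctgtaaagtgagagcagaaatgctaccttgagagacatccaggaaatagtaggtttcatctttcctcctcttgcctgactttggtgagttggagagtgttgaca
Mstn: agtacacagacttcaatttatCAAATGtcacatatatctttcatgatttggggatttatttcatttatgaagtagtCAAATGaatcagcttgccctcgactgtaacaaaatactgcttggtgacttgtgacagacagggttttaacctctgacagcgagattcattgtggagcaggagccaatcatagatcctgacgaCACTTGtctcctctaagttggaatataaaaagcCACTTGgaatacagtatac

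The Mss51 stretch held GTCTAGAC once, starting 222 bases before the start, and no CANNTG. The Mstn stretch held CANNTG at 4 places, starting 229, 174, 52 and 19 bases before the start, and no GTCTAGAC. Searched on both strands over the same 250 bases of 32851 RefSeq promoters, GTCTAGAC was present in 0.167% and CANNTG in 66.2%. The motifs were picked with the Mss51 stretch in view. CAGACA, the shorter Smad element, was in 17.1% of all stretches. It was present in Mstn and Fstl3 and not in Mss51, Acvr1b, Acvr2b or Smad3. GTAAACA, the FoxO element, was in 3.17% of all stretches and in none of these 6. AGGTCA, the core element of nuclear receptors such as PPARγ, was in 14.0% of all stretches and, of these 6, in Fstl3. A match says only that these letters stand in the stretch.

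Zmynd17 was lower in the cHF+F+ROSI mice. Its probe lies at chr14:19271745-19272112 on build mm8, the build of the array design, and was well above background on all 16 arrays. The log2 ratio ran from -0.80 through a median of 0.23 to 0.39 in the cHF+ROSI mice and from -1.54 through a median of -1.29 to -0.18 in the cHF+F+ROSI mice. The groups overlapped through 1 cHF+ROSI mouse and 2 cHF+F+ROSI mice. The mean was 0.08 ± 0.39 (SD, n = 8) in cHF+ROSI and -1.03 ± 0.53 (SD, n = 8) in cHF+F+ROSI, a difference of -1.11 (SE 0.21), or 2.17-fold lower. In 8 of 8 cHF+F+ROSI mice Zmynd17 was below the average of cHF+ROSI. Over all probes kept, 3 of 19398 (0.0155%) were called at an adjusted p under 0.05 with limma, and an unadjusted p of up to 0.05 was reached by 7.44%. These shares are the background for the counts given below and support nothing about Zmynd17, which was chosen in this contrast.

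The size of the difference depended on the slide. On slide 1 the cHF+ROSI mice (replicates 1 and 2) had 0.06 and 0.16 and the cHF+F+ROSI mice (replicates 2 and 3) had -1.35 and -1.24. On slide 2 the values were -0.14 and 0.29 for cHF+ROSI (replicates 3 and 4) and -1.35 and -0.95 for cHF+F+ROSI (replicates 4 and 5). On slide 4 they were 0.35 and 0.32 for cHF+ROSI (replicates 7 and 8) and -1.39 and -1.54 for cHF+F+ROSI (replicates 1 and 8). The diets did not overlap on any of these 3 slides, and the differences of the means within them were -1.41, -1.23 and -1.80. On slide 3 the cHF+ROSI mice (replicates 5 and 6) had 0.39 and -0.80 and the cHF+F+ROSI mice (replicates 6 and 7) had -0.27 and -0.18. There the difference was -0.02, and the cHF+F+ROSI mice lay between the cHF+ROSI mice. The 3 mice through which the groups overlapped were all on slide 3. Without that slide the difference was -1.48 (SE 0.10), and without slide 1, 2 or 4 it was between -0.89 and -1.08. The slide was singled out after its values were seen, so its contrast with the others was not tested, and what set it apart was not tested.

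**Figure D1:**
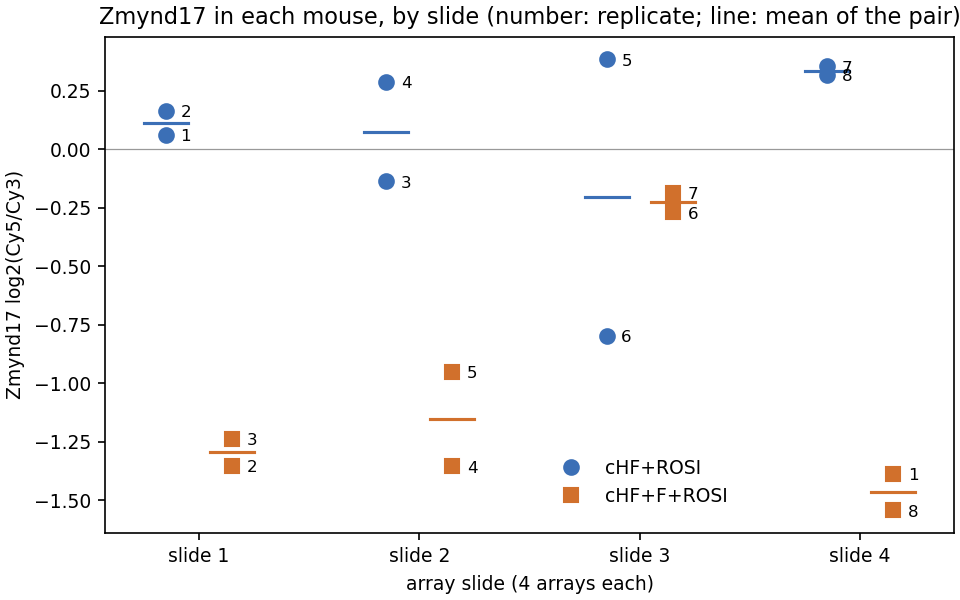
Zmynd17 as log2(Cy5/Cy3) in each of the 16 mice (vertical axis), ordered by array slide (horizontal axis); circles are cHF+ROSI, squares cHF+F+ROSI, numbers the replicates and short lines the mean of the 2 mice of a group on that slide. The difference, cHF+F+ROSI minus cHF+ROSI, is -1.41, -1.23 and -1.80 on slides 1, 2 and 4 and -0.02 on slide 3, where cHF+ROSI replicate 6 lies lowest.

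The spot of Zmynd17 was bright and the difference lay in the channel of the mice. The Cy5 signal as deposited was 36121 to 113786 in cHF+ROSI and 27519 to 81707 in cHF+F+ROSI, whereas the Cy3 signal of the pool was 10750 to 15181 and 11344 to 15549. The Cy5 signal came from the low laser scan scaled up on all 16 arrays, and it was saturated on none. With each channel normalized by itself, the difference was -0.98 in log2 Cy5 and 0.16 in log2 Cy3. Across the alternatives in background correction, normalization, filters and weights, and with each array left out, the Zmynd17 difference was between -0.996 and -1.24.

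The ligand Mstn was measured by 1 probe at chr1:53012183-53012242 (mm8). Its log2 ratio ran from 0.44 through a median of 0.96 to 1.19 in cHF+ROSI and from 0.67 through 1.11 to 1.55 in cHF+F+ROSI. The groups overlapped over most of their range, although the cHF+ROSI mean was exceeded in 6 of 8 cHF+F+ROSI mice. The difference was 0.22 (SE 0.13, 95% interval -0.06 to 0.50), with an adjusted p of 0.730 in limma (unadjusted p 0.111). Within slides it was 0.44 on slide 1, -0.04 on slide 2, 0.47 on slide 3 and 0.02 on slide 4. With arrays scaled to an equal spread of ratios it turned to -0.19, and without the 3 arrays of narrow spread it was 0.16.

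The receptors gave small differences. Acvr2b, a type II receptor of myostatin and activin, was read by 1 probe at chr9:119277251-119278606 (mm8) and ran from -0.88 through a median of -0.41 to -0.01 in cHF+ROSI and from -0.78 through -0.52 to -0.17 in cHF+F+ROSI. The range of cHF+F+ROSI lay within that of cHF+ROSI. The difference was -0.07 (SE 0.11, 95% interval -0.31 to 0.16, adjusted p 0.927 in limma). The highest value, on cHF+ROSI replicate 1, came from a spot whose local background was 65041 in Cy5 and 64785 in Cy3, above its own signals of 343 and 261.5, and that carried a background flag. Without that array the Acvr2b difference was -0.01. Without a filter on weak signals it turned to 0.29, with Cy5 alone to 0.36 and without the 3 arrays of narrow spread to 0.0023.

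Acvr1b, the type I receptor of activin and one of those used by myostatin, ran from 0.12 through a median of 0.44 to 0.84 in cHF+ROSI and from 0.01 through 0.69 to 1.06 in cHF+F+ROSI at its brighter probe (chr15:101041559-101041618, mm8). The groups overlapped, and the cHF+F+ROSI mice spread wider. The difference was 0.10 (SE 0.14, 95% interval -0.20 to 0.40, adjusted p 0.913 in limma). Between slides it ran from -0.53 to 0.61. The other probe (chr15:101039043-101039100) was well above background on 3 of 16 arrays in Cy5 and 5 of 16 in Cy3 and failed the filter. Without a filter its difference was -0.02 (SE 0.06).

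Smad2 and Smad3 carry the signal of myostatin and activin to the nucleus. The Smad2 probe lies on chromosome 18 (76430331 to 76430390, mm8), and the Smad2 log2 ratio ran from 0.04 through a median of 0.73 to 0.96 in cHF+ROSI and from 0.36 through 0.76 to 0.90 in cHF+F+ROSI. The 3 lowest values, 0.04, 0.21 and 0.36, were those of the 3 arrays of narrow spread. The Smad2 difference was 0.08 (SE 0.12, adjusted p 0.925 in limma) and -0.04 without these arrays.

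Smad3 was read by 3 probes. At the brightest of them (chr9:63445330-63445389, mm8) Smad3 ran from -0.56 through a median of 0.12 to 0.26 in cHF+ROSI and from -0.27 through 0.03 to 0.32 in cHF+F+ROSI. The difference of the means was -0.0047 (SE 0.11, 95% interval -0.24 to 0.23, adjusted p 0.995 in limma). The other probes gave 0.04 (SE 0.06, adjusted p 0.921) at chr9:63447691-63447750 and 0.13 (SE 0.15, adjusted p 0.888) for the probe with no position in the files. No Smad3 probe separated the groups, and the sign of the brightest one changed under 12 of 31 alternatives.

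The inhibitors were lower on average in cHF+F+ROSI, none beyond the spread between mice. Smad7, the inhibitor at the receptor inside the cell, was read on chromosome 18 (75521082 to 75521141, mm8) and ran from 0.03 through a median of 1.01 to 1.42 in cHF+ROSI and from 0.18 through 0.79 to 0.91 in cHF+F+ROSI. The lowest values of Smad7, 0.03 and 0.31 among cHF+ROSI mice and 0.18 among cHF+F+ROSI mice, were again those of the 3 arrays of narrow spread. The difference was -0.17 (SE 0.17, 95% interval -0.52 to 0.19, adjusted p 0.869 in limma, unadjusted p 0.343). Without the 3 arrays, a setting added after the data were seen, it was -0.33 (SE 0.07), with an unadjusted p of 0.000528 and an adjusted p of 0.251 in limma. The remaining 6 cHF+ROSI mice, at 0.92 to 1.42, then lay above the remaining 7 cHF+F+ROSI mice, at 0.69 to 0.91.

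Fst, which binds activin and myostatin outside the cell, was read by 1 probe at chr13:115575362-115576034 (mm8) and ran from -0.53 through a median of -0.38 to -0.01 in cHF+ROSI and from -0.73 through -0.52 to -0.07 in cHF+F+ROSI. The groups overlapped widely. The Fst difference was -0.14 (SE 0.10, 95% interval -0.36 to 0.08, adjusted p 0.800 in limma, unadjusted p 0.189). On the signals processed by Feature Extraction it was -0.40, below that interval (limma unadjusted p 0.00208, adjusted p 0.180), and in the table of the authors -0.26. The Fst spot was dim, with signals of 182 to 322 in Cy5 and 94 to 139 in Cy3. Its local background reached 59 in Cy5 and 48 in Cy3. Fstl3, read at chr10:79184262-79184321 (mm8), ran from -0.36 through a median of -0.21 to 0.01 in cHF+ROSI and from -0.48 through -0.25 to -0.02 in cHF+F+ROSI. Its difference was -0.05 (SE 0.07, 95% interval -0.19 to 0.10, adjusted p 0.913 in limma).

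**Figure D2:**
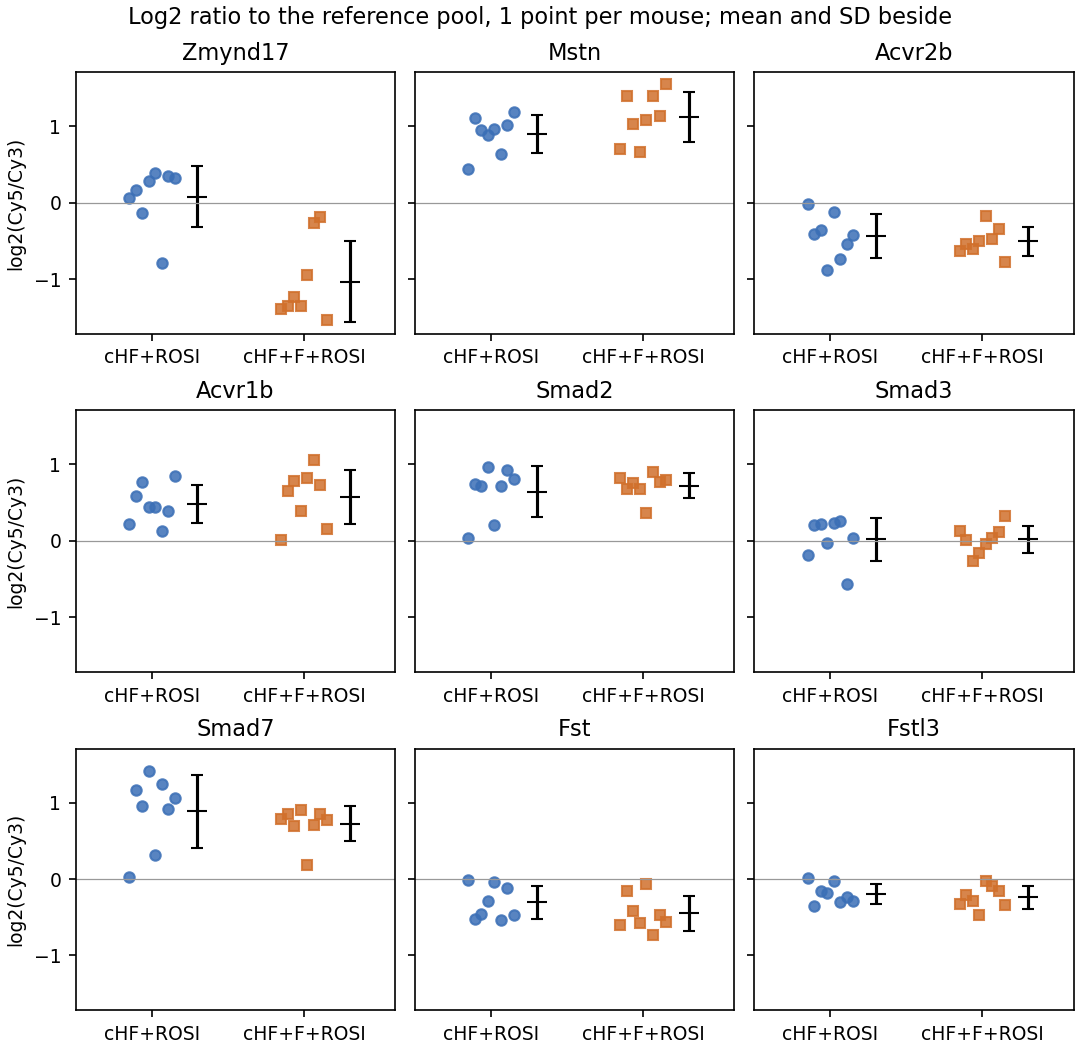
Log2(Cy5/Cy3) of the 9 genes (vertical axis, the same in each panel) at the brightest probe of each, with 1 point per mouse for the 8 cHF+ROSI (circles) and 8 cHF+F+ROSI mice (squares) and the mean ± SD as a black bar. Zmynd17 means are 1.11 apart; those of the other 8 genes are at most 0.22 apart, within overlapping ranges.

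Of the 8 other members, 0 passed an adjusted p of 0.05 and 0 passed an unadjusted p of 0.05 in limma, beside 7.44% of all probes at the latter, and 3 were higher and 5 lower. The methods' t-test on the same values also called 0 at an unadjusted p of 0.05. Their median difference was -0.03, beside -0.0012 over all probes kept. The 95% intervals of single members reached 0.50 upward for Mstn and -0.52 downward for Smad7, so differences of up to these sizes lay within the error.

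The wider pathway was described with a list of 64 genes grouped by role, of which 55 passed the filter. The genes that did not were Gdf11, Acvr1c, Tgfbr3, Smad9, Wfikkn1, Nog, Grem1, Tll1 and Tll2. Of the 55, 5 had an unadjusted p of up to 0.05, 1 higher and 4 lower, beside 7.44% of all probes, and 0 had an adjusted p under 0.05. In sign, 13 were higher and 42 lower with a median difference of -0.07, whereas 50.7% of all probes were lower. Genes of 1 pathway are not independent of each other, and this list includes the members above.

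Of the 5 genes with an unadjusted p of up to 0.05, Smad1, Smad6, Acvr1 and Skil were lower and Bmpr2 was higher. Smad1, which carries signals of bone morphogenetic proteins to the nucleus, ran from -1.12 through a median of -0.82 to -0.17 in cHF+ROSI and from -1.41 through -1.12 to -0.91 in cHF+F+ROSI, a difference of -0.36 (SE 0.11, adjusted p 0.453 in limma). Its second probe gave -0.06. Smad6, an inhibitor of the same signals inside the cell, ran from -0.07 through 0.26 to 0.47 in cHF+ROSI and from -0.23 through -0.01 to 0.14 in cHF+F+ROSI, a difference of -0.23 (SE 0.08, adjusted p 0.502). Neither gene separated the groups in full.

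The type I receptor Acvr1 differed by -0.19 (SE 0.05, adjusted p 0.320), from a mean of 0.22 ± 0.11 (SD, n = 8) to 0.03 ± 0.09 (SD, n = 8). The type II receptor Bmpr2 differed by 0.16 (SE 0.05, adjusted p 0.457), with means of 0.13 and 0.29, and its other 2 probes gave 0.09 and 0.02. Skil, a co-repressor of Smad proteins, differed by -0.25 (SE 0.11, adjusted p 0.635). All of these p-values are from limma over all probes, and none of these genes passed it after adjustment.

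By role, the ligands were higher for 3 and lower for 7 of the 10 kept, with Mstn at 0.22 and Tgfb2, a transforming growth factor, at -0.17. The receptors were higher for 6 and lower for 3 of 9. The Smad proteins were lower for 4 of 5 and the inhibitors inside the cell for 6 of 7. Of the genes listed as extracellular inhibitors, 7 of 8 were lower, with Fst at -0.14. That list also counted Tcap (-0.10), a sarcomere protein inside the fibre. The genes of processing and storage were lower for 5 of 5, with Ltbp3 at -0.09 and the protease Furin at -0.07. Among the downstream genes 10 of 11 were lower, with Ctgf, a matrix protein induced by these ligands, at -0.41 (SE 0.20, adjusted p 0.685) and Myog, a myogenic factor, at -0.34 (SE 0.16, adjusted p 0.681). The ubiquitin ligase Fbxo32, which serves protein breakdown in wasting muscle, was at 0.15 (SE 0.18) and Trim63, another such ligase, at -0.12 (SE 0.13), with -0.54 (SE 0.32) at its second probe. In limma 0 genes of the ligands, of the extracellular inhibitors, of processing and of the downstream genes had an unadjusted p of up to 0.05.

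**Figure D3:**
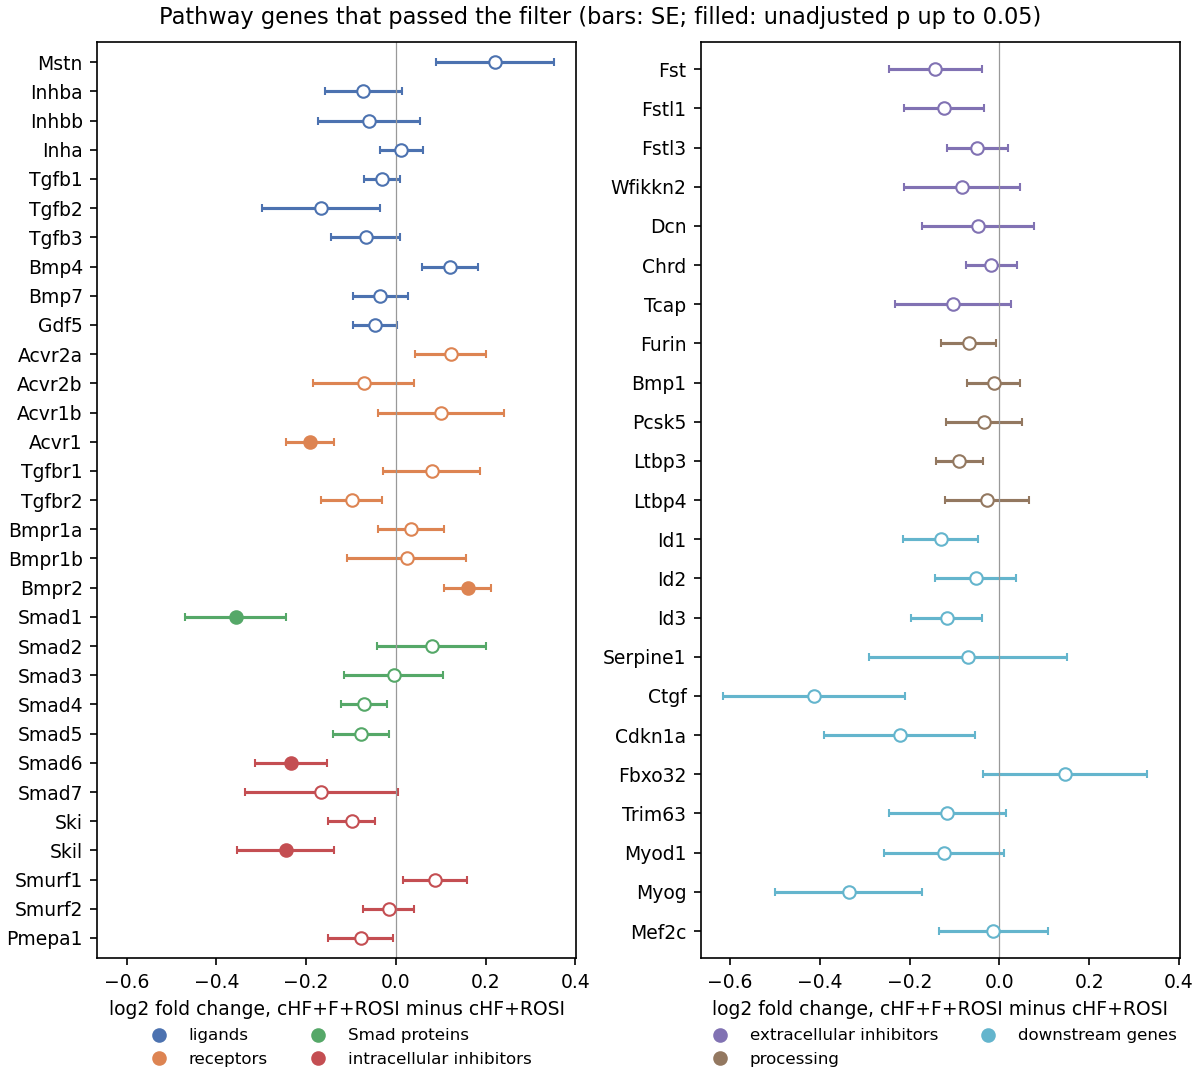
Log2 fold change, cHF+F+ROSI minus cHF+ROSI (horizontal axis), for the pathway genes that passed the filter, all but 1 of the 55, at the brightest probe of each, with bars for the SE and colours for the role; filled points have an unadjusted p of up to 0.05. The filled points are Acvr1, Bmpr2, Smad1, Smad6 and Skil, and 42 points lie left of 0.

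Whether Zmynd17 varied with the other members from mouse to mouse was examined with the deviations of each mouse from the mean of its group, since the diet separated most Zmynd17 values. The p-values came from 100000 permutations of the mice within their groups, two-sided, and were adjusted over the 8 relations. Acvr1b had the highest correlation (r = 0.61, rho = 0.58, permutation p 0.0197, adjusted p 0.158), which missed the threshold after adjustment. Within the groups r for Acvr1b was 0.44 in cHF+ROSI (exact permutation p 0.285) and 0.71 in cHF+F+ROSI (exact permutation p 0.0536). The relation of Acvr1b held a similar r with slide removed (0.65, permutation p 0.0111, adjusted p 0.0887) and after removal of the 2 mice farthest from the median (0.59), passed after adjustment with median centring (r = 0.71, adjusted p 0.0342) and with Cy5 alone (r = 0.70, adjusted p 0.0447, both by permutation), and was -0.0029 with arrays scaled to an equal spread. Without slide 3 it was 0.40 with a permutation p of 0.238.

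Fstl3 followed with r = 0.48 (rho = 0.49, permutation p 0.0754, adjusted p 0.302) and 0.23 without slide 3. For Acvr2b r was 0.40 (rho = 0.47, permutation p 0.120, adjusted p 0.320) and for Mstn 0.32 (rho = 0.30, permutation p 0.266, adjusted p 0.533). Without slide 3 these were 0.11 and 0.03. Smad3 (r = -0.21, rho = -0.23, permutation p 0.415), Smad7 (r = -0.16, rho = -0.21, permutation p 0.504), Fst (r = 0.11, rho = 0.10, permutation p 0.702) and Smad2 (r = 0.05, rho = 0.20, permutation p 0.836) were lower in size, with adjusted p of 0.664, 0.671, 0.802 and 0.836. Without slide 3 they were -0.53, -0.08, 0.47 and 0.02 in that order. Without the 2 mice farthest from the median of Zmynd17 (cHF+ROSI replicate 6 and cHF+F+ROSI replicate 7, both on slide 3), r was 0.44 for Fstl3, 0.21 for Acvr2b, 0.27 for Mstn, -0.19 for Smad3, -0.11 for Smad7, -0.02 for Fst and 0.09 for Smad2. With the processing used here, no relation passed an adjusted p of 0.05.

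**Figure D4:**
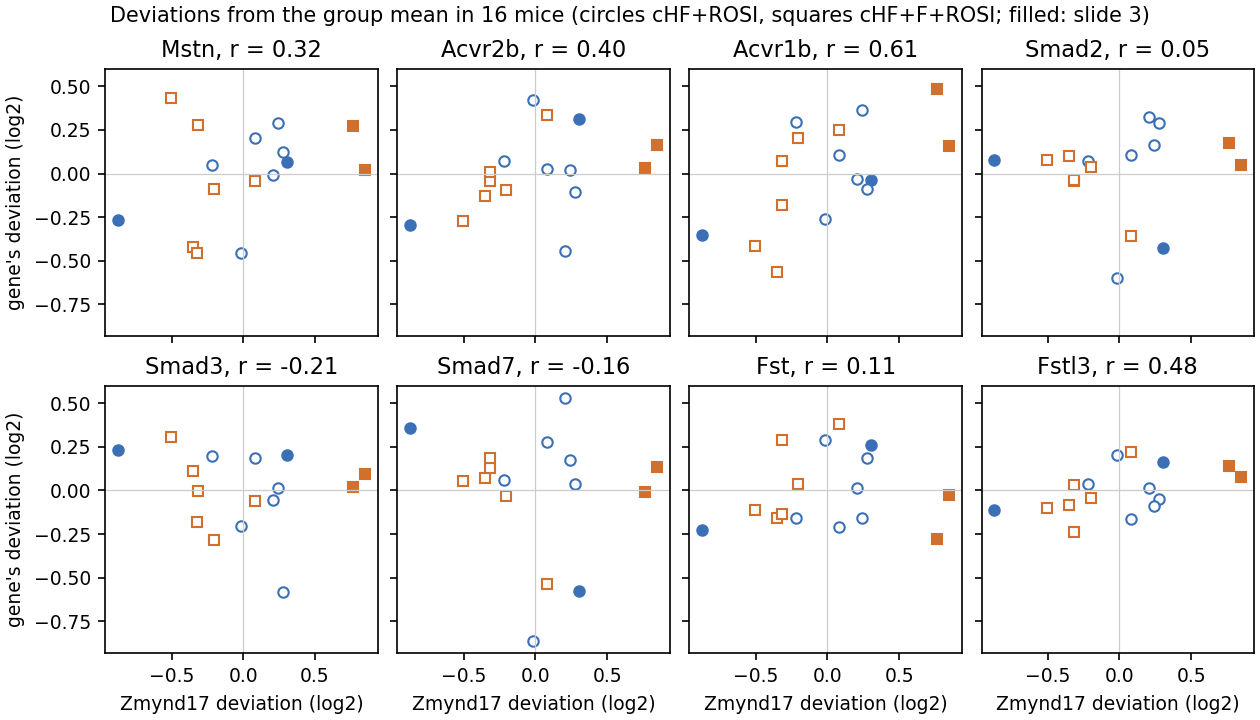
Deviation of each of the 8 other genes from its group mean (vertical axes, log2) against the deviation of Zmynd17 (horizontal axes, log2) in the 16 mice, circles for cHF+ROSI and squares for cHF+F+ROSI, filled for slide 3; each panel gives Pearson's r. The points farthest left and right in each panel, at -0.88 and 0.85, are mice of slide 3, and r runs from -0.21 for Smad3 to 0.61 for Acvr1b.

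The genes most like Zmynd17 were taken from 13769 genes with a value on all 16 arrays, by r of the deviations over the 16 mice, as a description. These points share arrays and slides. The highest r belonged to Hdac3 (0.85), a histone deacetylase, Pms2 (0.84), a DNA mismatch repair protein, Rbm3 (0.83), an RNA-binding protein induced by cold, Kpna2 (0.83), a nuclear import receptor, and a probe with no gene name (0.83). The lowest belonged to Ccdc68 (-0.84), Ptprf (-0.83), a receptor phosphatase, and Afap1l2 (-0.83). With the outermost 1% on either side left out, all genes lay between -0.63 and 0.65. No member was among these 8, and Acvr1b, the member with the highest r (0.61), ranked 236 of 13769. Without slide 3 the 5 highest genes had an r of 0.54 to 0.67 and the 3 lowest one of -0.30 to -0.63. None of the 8 differed between the diets at an adjusted p under 0.05 in limma (differences from -0.31 to 0.12, adjusted p of 0.502 or more). The probe with no gene name (-0.31, limma unadjusted p 0.00937) and Hdac3 (-0.11, limma unadjusted p 0.0443) passed an unadjusted p of 0.05, as did 7.44% of all probes.

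Zmynd17 is a gene of muscle fibres, so fibre genes were set beside it. The mean log2 ratio of the 10 fast fibre genes was 0.20 to 0.61 in cHF+ROSI and 0.20 to 0.49 in cHF+F+ROSI, and its deviations had an r of 0.31 with those of Zmynd17. That of the 9 slow fibre genes was -1.18 to 0.56 and -2.04 to 0.29, with an r of -0.02. The median difference was -0.43 over the slow fibre genes, 8 of 9 of them lower, and -0.07 over the fast fibre genes, 6 of 10 of them lower. Among the slow fibre genes, the myosin heavy chain Myh7 was at -0.54 (SE 0.58), the myosin light chain Myl2 at -0.46 (SE 0.37) and the troponin Tnni1 at -0.53 (SE 0.39). In that order, their lowest cHF+F+ROSI values were -4.01, -3.19 and -2.48, below cHF+F+ROSI medians of -0.74, -0.55 and -0.83. The cHF+ROSI medians were -0.47, -0.24 and -0.24, and the lowest cHF+ROSI values were -2.16, -1.35 and -1.81. Between the diets the medians lay closer together than the means for Myh7 and Myl2, but not for Tnni1. The slow fibre differences ran in the same direction as those of Zmynd17 and most of the pathway genes. Their part in those was not tested. In limma 0 of 10 fast and 1 of 9 slow fibre genes (Csrp3, -0.92, SE 0.27, adjusted p 0.372) had an unadjusted p of up to 0.05, beside 7.44% of all probes. The authors' own list of lower genes in this contrast already held Csrp3, so its call is no independent result. For the other marker lists r lay between -0.45 for the Schwann cell genes and 0.46 for the 7 skeletal muscle genes. Of these lists, the endothelial genes had 2 of 3 past an unadjusted p of 0.05 in limma, beside the same 7.44% of all probes. These were Cdh5 at -0.16 (SE 0.05, adjusted p 0.457) and Kdr at -0.27 (SE 0.12, adjusted p 0.628). The mean log2 ratio of the endothelial genes was -0.45 to 0.01 in cHF+ROSI and -0.52 to -0.19 in cHF+F+ROSI. The fibroblast and tendon genes had 1 of 6, Lum at -0.23 (SE 0.11, adjusted p 0.669). The part of these cells in the values of the pathway genes was not tested.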

How the data were processed

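Muscle RNA of 16 mice was hybridized to two-color Agilent arrays, Cy5 for the mouse and Cy3 for a common pool, without dye swap. The authors deposited the scanner's intensities of each spot, from Feature Extraction (10.5.1.1 per the file headers, 10.5.5.1 per the submitters' processing notes) and a table of normalized log2 values, which followed the Cy5 channel (r of 0.998 with quantile-normalized Cy5, column medians 9.47 to 9.49, basis of their level unknown) and was used as an alternative. Its cHF+F+ROSI columns could be assigned to the group but not to single mice.

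From the median signals, background was corrected by normexp (offset 50), controls were left out, weak spots were removed unless the ratio of signal to background averaged 2 or more in Cy5 and in Cy3, spots flagged as outliers were dropped from that array (0.327% of spots), loess was applied to log2(Cy5/Cy3) of each array and spots of a probe were averaged. Groups were compared by lmFit and eBayes of limma 3.58.1 (R 4.3.3), and p-values were adjusted over 19398 probes by Benjamini-Hochberg. Names came from the files, and for 59.2% of probes from RefSeq by accession. Lists used 1 probe per gene, the brightest. Named genes were the members, the pathway genes with an unadjusted p of up to 0.05, the 2 largest differences in each role, the genes most and least like Zmynd17 and the defining markers. Others named beside them (Fbxo32, Trim63) were chosen after their values were seen, and 1 gene that the rule names is not reported here. The members and lists were chosen with earlier results of these data known. Median signal over background was 2.33 to 3.64 in Cy5 and 1.78 to 2.02 in Cy3 over the arrays. No 2 arrays held identical values (r at most 0.92), and p-values measure the spread between mice, housed in pairs that the sources used here do not name. The number of arrays limits precision. The fit was tested on simulated data. Alternatives covered background correction, normalization, channel, filters, blocks, weights, the authors' table, the methods' t-test and each array left out.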

Additional observations from a re-analysis of the deposited data

Results flagged for a closer look

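Among 24 groups of 8 values (12 probes in each diet), 3 held a mouse set apart from the other 7 by a gap larger than Dixon's 95% limit, and chance alone flags about 5% of groups. The Zmynd17 log2 ratio of cHF+ROSI replicate 6 was -0.80, below the other 7 cHF+ROSI mice at -0.14 to 0.39. Without this mouse the difference was -1.24. The Smad2 log2 ratio of cHF+F+ROSI replicate 5 was 0.36 and its Smad7 log2 ratio was 0.18, both the lowest of their group. The ratios of all probes on that array had an SD of 0.25, beside 0.35 to 0.47 on the 13 arrays of wider spread. The part of that spread in the Smad2 and Smad7 values was not tested.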

How the results depend on the processing

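The Zmynd17 difference kept its sign under all 34 alternatives (-0.89 without slide 4 to -1.48 without slide 3; -1.04 to -1.24 with each mouse left out). The Smad7, Fst and Fstl3 differences stayed negative under all 31 of theirs. The count of other members past an unadjusted p of 0.05 went from 0 to 1 with signals processed by Feature Extraction and with the authors' table (Fst), without the arrays of narrow spread (Smad7) and, among fits leaving out a mouse (0 to 1), without cHF+F+ROSI replicate 1 or 4 (Mstn). That of pathway genes went from 5 to 9, 8 and 8 with Feature Extraction signals, Cy5 alone and the authors' table, and was 4 to 10 with each mouse left out (10 without cHF+ROSI replicate 7). Over all probes, calls at an adjusted p under 0.05 ran from 0 (arrays scaled to equal spread) to 19 (Feature Extraction signals). Leaving out slides, narrow arrays or spots with a background flag was chosen after seeing the data.

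Differences that turned sign were those of Smad3 (0.019 without background correction, 0.028 with Feature Extraction signals, 0.037 scaled, 0.056 in the authors' table, 0.0047 without narrow arrays, -0.088 to 0.036 leaving out a mouse), Mstn (-0.19) and Acvr1b (-0.033) scaled, Acvr2b (0.36 with Cy5 alone, 0.29 unfiltered, 0.0023 without narrow arrays) and Smad2 (-0.041 without narrow arrays, -0.0064 to 0.13 leaving out a mouse). Correlations with Zmynd17 that turned sign were those of Fst (-0.011 with Feature Extraction signals, -0.040 median-centred, -0.076 scaled, -0.17 in the authors' table, -0.022 without the 2 farthest mice, -0.062 to 0.33 leaving out a mouse), Smad2 (-0.097 median-centred, -0.13 scaled, -0.15 with Cy5 alone, -0.027 without background-flagged spots, -0.049 to 0.16 leaving out a mouse), Smad3 (0.073 median-centred, 0.12 scaled), Acvr1b (-0.0029 scaled) and Smad7 (0.048 scaled). The causes were not tested.

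The labels number the replicates but do not say that equal numbers pair the mice. Deviations of same-numbered mice correlated at -0.34 to 0.73, over 0.1 in 4 of 8 numbers, which cannot settle a pairing. The highest, 0.73, was that of replicate 5, where both arrays had a narrow spread of ratios (SD 0.23 and 0.25). With the replicate number as a block, the Zmynd17 difference was -1.11 (SE 0.22). In that fit 1 other member (Mstn, limma unadjusted p 0.0302, adjusted p 0.652) and 7 of 55 pathway genes passed an unadjusted p of 0.05, beside 7.37% of all probes. Of all probes, 0 passed an adjusted p of 0.05 in place of 3 (1430 against 1444 unadjusted).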
